A study of Mus musculus with 3 samples.

Results

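The 10 genes described here control the passage of a cell from G1 into S phase: the D cyclins *Ccnd1*, *Ccnd2* and *Ccnd3*, their kinases *Cdk4* and *Cdk6*, the E cyclins *Ccne1* and *Ccne2* with their kinase *Cdk2*, the retinoblastoma gene *Rb1* and the transcription factor gene *E2f1*. They were taken by symbol from the 54838 genes listed in the deposited counts, by a rule that uses no measured value. D cyclins with Cdk4 or Cdk6, and then E cyclins with Cdk2, phosphorylate Rb and release E2F, which switches on the genes of DNA replication. The INK4 proteins block Cdk4 and Cdk6, and p21 and p27 restrain Cdk2. Thymocytes divide in bursts at the double-negative stage and after the pre-T cell receptor signal, and cyclin D3 is known to be needed for that expansion. *Cdkn1a*, the gene of p21, is a classical target of p53.

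Spatial transcriptomes of thymus sections from 3 female C57BL/6 mice were compared, 2 with a germline deletion of *Trp53* (*Trp53*-/-, KO) and 1 WT (*Trp53*+/+). At sampling, mouse KO1134 and the WT mouse were 17 weeks old and mouse KO1308 was 21 weeks old by the labels. RNA was captured on slides with barcoded spots 4.8 µm apart, and each transcript was counted through its unique molecular identifier (UMI). The deletion is present in every cell of the KO animals, the study describes its KO thymus as pre-neoplastic, and a section samples 1 plane of 1 organ. The size of the section labelled KO1134 is closer than that of the other KO section to what the study lists for mouse KO1308, so the labels of the KO sections may be exchanged. They are used here as deposited.

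UMIs of neighbouring spots were added up in squares 27 µm wide. A square (bin) was kept if it held 300 genes or more and a mitochondrial share no greater than 30%, which left 12018 bins over tissue in KO1134, 15973 in KO1308 and 27096 in WT. The deposited totals ranged from 21089885 to 41581477 UMIs, and a kept bin held a mean of 2590 UMIs in KO1134, 1095 in KO1308 and 1497 in WT. Values are CPM, the UMIs of a gene divided by all UMIs of the summed bins and scaled in the usual way, with exact 95% Poisson intervals in brackets where given. These intervals cover counting error only. *Trp53* itself stood at 14.5 CPM in the thymus area of KO1134, 24.7 in KO1308 and 80.1 in WT, in the order the labels give. The thymus area was the set of bins around which 6 thymus genes reached 50% of their share in the section, with lymph-node-like bins left out. Inside it, the genes of cortical and of medullary epithelium were each divided by their own share in the thymus area of that section. Cortex and medulla were bins where 1 of these relative levels led by at least 1.5 times in the surrounding 7 × 7 bins. In the medulla so drawn, medullary epithelial genes summed to 1684 CPM in KO1134, 1535 in KO1308 and 526 in WT. KO and WT medulla are thus not like areas. Bins in between were kept apart, and so were tissue bins poor in thymus genes, bins with more B cell than thymus gene UMIs (lymph-node-like) and adipose bins. The thymus-gene-poor bins carried 1357 to 2460 CPM of the 10 medullary epithelial genes and therefore include medulla. No gene of the 10 was used to draw an area. Since several cells can lie in 1 bin, fewer cells of a type and less RNA per cell cannot be told apart.

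*Ccnd3* supplied most D cyclin UMIs in the thymus, and its share was lower in medulla than in cortex in each of the 3 sections. In the cortex *Ccnd3* made up 79.3% of D cyclin UMIs in KO1134 [77.9 to 80.7], 94.9% in KO1308 [94.2 to 95.6] and 96.8% in WT [96.5 to 97.1], by exact binomial intervals. In the medulla the share of *Ccnd3* was 53.0%, 74.8% and 87.9% in the same order. In the thymus-gene-poor bins it was 43.6%, 54.2% and 67.1%. The order of areas was the same in all 3 sections, and within each area KO1134 had the lowest share of *Ccnd3* and WT the highest. The lymph-node-like bins, present only in the KO sections, were at 56.9% in KO1134 and 49.1% in KO1308, and *Ccnd2* came next there with 25.4% and 33.9%. Each transcript is counted once at its poly(A) end, so these are shares of transcripts as assigned to each gene. Whether strand was used in counting was not stated, so reads of overlapping genes, given below, may be among them. Dividing by the length of the longest transcript moved the mean share of *Ccnd3* from 90.3% to 92.3% in the cortex and from 71.9% to 76.9% in the medulla.

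**Figure D1:**
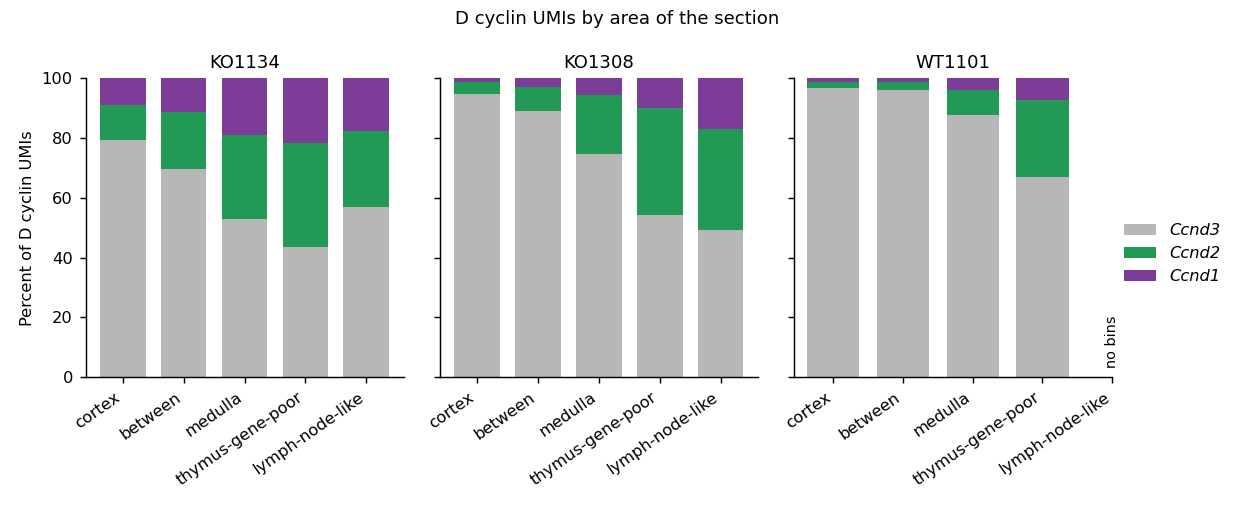
Shares of *Ccnd1*, *Ccnd2* and *Ccnd3* in their summed UMIs (vertical axis, percent) by area of the section (horizontal axis), with 1 panel per section. The grey *Ccnd3* part shrinks from the cortex to the thymus-gene-poor bins in every section, and in the medulla it is 53.0% in KO1134, 74.8% in KO1308 and 87.9% in WT.

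*Ccnd3* (chr17:47505051-47599691, plus strand, GRCm38) was measured at 189.3 CPM in the cortex of KO1134 [182 to 197], 651 in KO1308 [631 to 671] and 537 in WT [528 to 546]. In the medulla it stood at 127, 307 and 470 CPM. KO1134 was low in both areas, and KO1308 was above WT in the cortex and below it in the medulla. The medulla held less *Ccnd3* than the cortex in 3 of 3 sections, with a log2 difference of -0.65 (SE 0.16, adjusted p = 0.0122, edgeR quasi-likelihood test with the section as a block and Benjamini-Hochberg adjustment, n = 3 sections). Without KO1308 the difference was -0.42 and the adjusted p 0.0789. The p-values of the full fit, here and below, come from 3 sections, 2 KO and 1 WT. Their error also draws on other genes, through the edgeR estimate of dispersion, and not on the spread between sections alone. A fit without a section rests on fewer sections. The 7 genes of the CD4+CD8+ thymocyte list, such as *Rag1* and *Dntt*, summed to 881, 2551 and 3796 CPM in the cortex of KO1134, KO1308 and WT, and to 427, 1057 and 2983 in the medulla. That list was detected in full in every section and was lowest where *Ccnd3* was lowest. In the cortex, though, the list was lower in KO1308 than in WT while *Ccnd3* was higher. The part of the list in the values of *Ccnd3* was not tested.

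*Ccnd1* (chr7:144929931-144939925, minus strand) and *Ccnd2* (chr6:127125162-127152193, minus strand) had the opposite distribution to *Ccnd3*. *Ccnd1* rose from 21.1 CPM in the cortex to 45.0 in the medulla of KO1134, from 7.83 to 23.4 in KO1308 and from 7.32 to 19.8 in WT. *Ccnd2* rose from 28.3 to 67.2 CPM in KO1134, from 26.9 to 79.9 in KO1308 and from 10.5 to 44.8 in WT. The medulla was above the cortex in 3 of 3 sections for both genes and the intervals of the 2 areas did not overlap. The log2 difference was 1.31 for *Ccnd1* (SE 0.16, adjusted p = 0.000321) and 1.60 for *Ccnd2* (SE 0.16, adjusted p = 8.70e-05) in the same edgeR fit. In the thymus-gene-poor bins *Ccnd2* reached 96.9 CPM in KO1134, 110 in KO1308 and 124 in WT, and there the WT section was no longer the lowest. Lists of other cell types were higher along the same path. From cortex to medulla, B cell genes went from 54.8 to 196 CPM in KO1134, from 48.5 to 193 in KO1308 and from 30.6 to 95.7 in WT. Macrophage, dendritic, fibroblast and mature T cell genes were also higher in the medulla of each section, every list was detected in full, and their part in *Ccnd1* and *Ccnd2* was not tested.

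**Figure D2:**
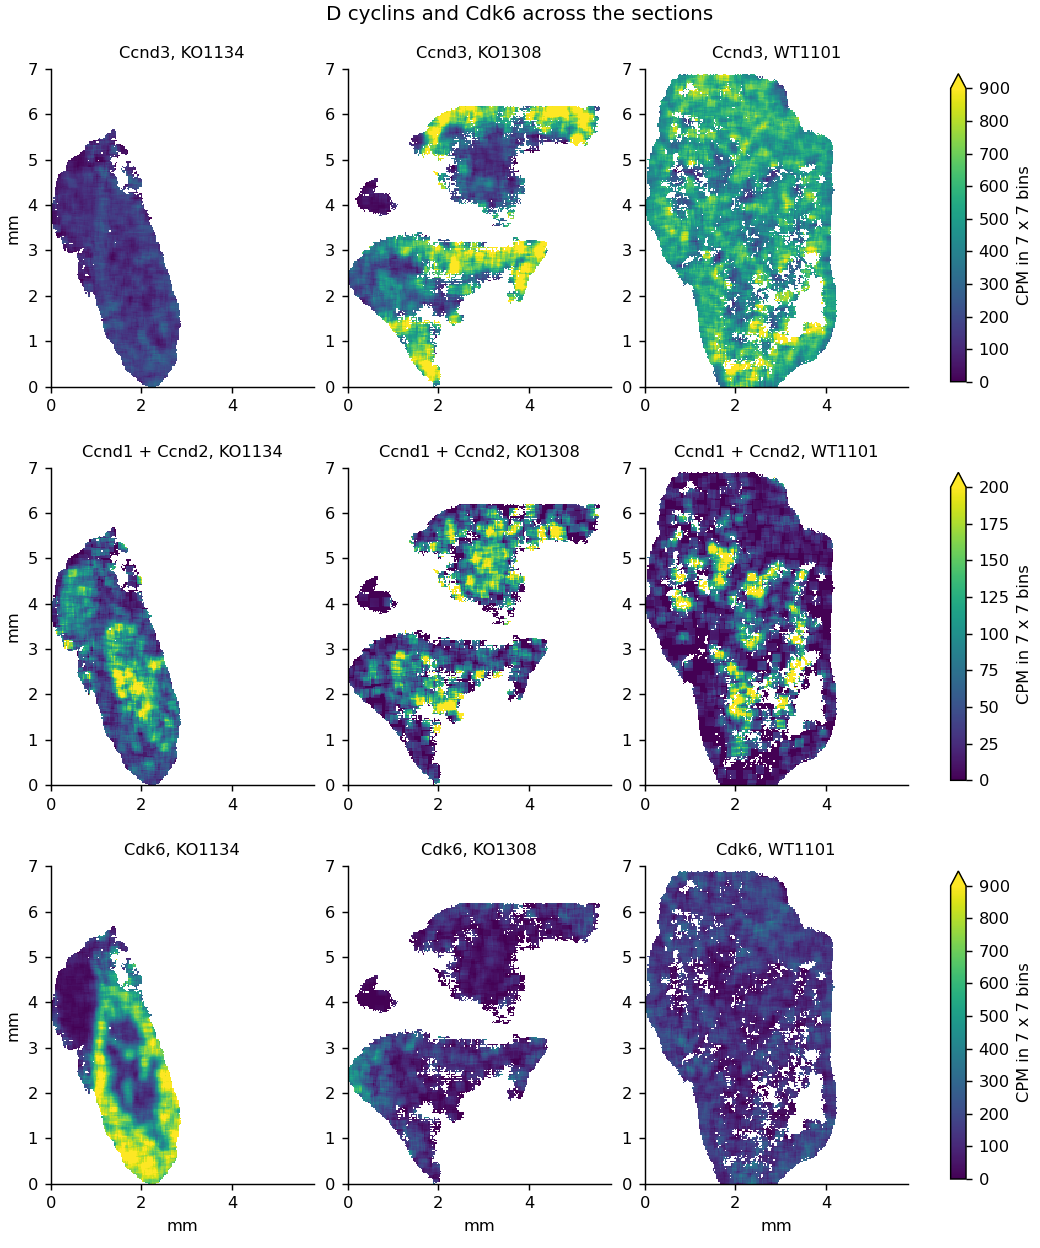
Maps of *Ccnd3*, the sum of *Ccnd1* and *Ccnd2*, and *Cdk6* (rows) in KO1134, KO1308 and WT1101 (columns), with both axes in mm and colour giving CPM over the 7 × 7 bins around each bin, capped at 900 CPM in the upper and lower rows and at 200 in the middle row. *Ccnd1* with *Ccnd2* fills patches inside each section, *Cdk6* forms a bright rim in KO1134, where the cortex held 751 CPM, and *Ccnd3* is dim throughout that section.

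Beside WT, *Ccnd2* was the gene of the 10 that was past 1.5-fold in the same direction in both KO sections over the whole thymus area. It stood at 40.4 CPM in KO1134 [37.8 to 43.1], 46.7 in KO1308 [43.2 to 50.4] and 18.2 in WT [16.9 to 19.6], a ratio to WT of 2.22 [2.01 to 2.45] and 2.56 [2.30 to 2.86] by exact conditional binomial intervals. Both KO sections were above WT and close to each other. Genotypes were not tested against each other, since WT has 1 section, and genotype cannot be told apart from the animal and the section. Of 16745 genes with at least 100 UMIs in this area, 19.9% were past 1.5-fold higher in both KO sections and 6.12% were past it in the lower direction, so 1 of 10 genes higher and 0 of 10 lower is not above that background. The median of all genes itself lay 0.05 above WT on the log2 scale in KO1134 and 0.19 in KO1308. Of the genes past the limit 76.5% were higher, against 65.8% with TMM scaling and 64.4% relative to the median gene. In the cortex alone the ratio of *Ccnd2* was 2.68 and 2.55 (14.1% of 14889 genes higher, 5.43% lower), and in the medulla it was 1.501 and 1.78 (14.2% of 13245 genes higher, 8.79% lower). The first medulla ratio lies just inside the 1.5-fold limit. In the thymus-gene-poor bins *Ccnd2* was not higher, at ratios of 0.779 [0.636 to 0.953] and 0.885 [0.731 to 1.07]. Over the thymus area B cell genes summed to 99.7 and 103 CPM in the KO sections and 45.7 in WT, and medullary epithelial genes to 626 and 714 CPM against 154. Dendritic genes were at 133 and 108 CPM against 42.3 and fibroblast genes at 276 and 264 against 126. Every list was detected in full, and their part in the difference in *Ccnd2* was not tested.

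*Ccnd1* in the thymus area was at 27.9 CPM in KO1134, 14.1 in KO1308 and 9.59 in WT, ratios of 2.91 and 1.47, the second just outside the limit. *Ccnd3* was at 165 CPM in KO1134 [160 to 170], 525 in KO1308 [513 to 537] and 532 in WT [524 to 539]. KO1134 thus had a ratio of 0.310 to WT for *Ccnd3*, rank 16316 of 16745 genes from the highest ratio, whereas KO1308 had a ratio of 0.987 [0.961 to 1.01]. In the medulla *Ccnd3* was past 1.5-fold lower in both KO sections, at ratios of 0.270 and 0.653. The medulla was drawn relative to each section, and its medullary epithelial genes summed to 1684 and 1535 CPM in KO1134 and KO1308 and 526 in WT. The part of this in the medulla ratios was not tested. Taken alone, KO1134 had 4 of the 10 genes past 1.5-fold higher than WT (27.4% of all genes) and 2 lower (18.9%), and KO1308 had 1 higher (31.5%) and 0 lower (11.1%). Between the KO sections, *Ccnd3* in the thymus area of KO1134 was 0.314 times that of KO1308.

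**Figure D3:**
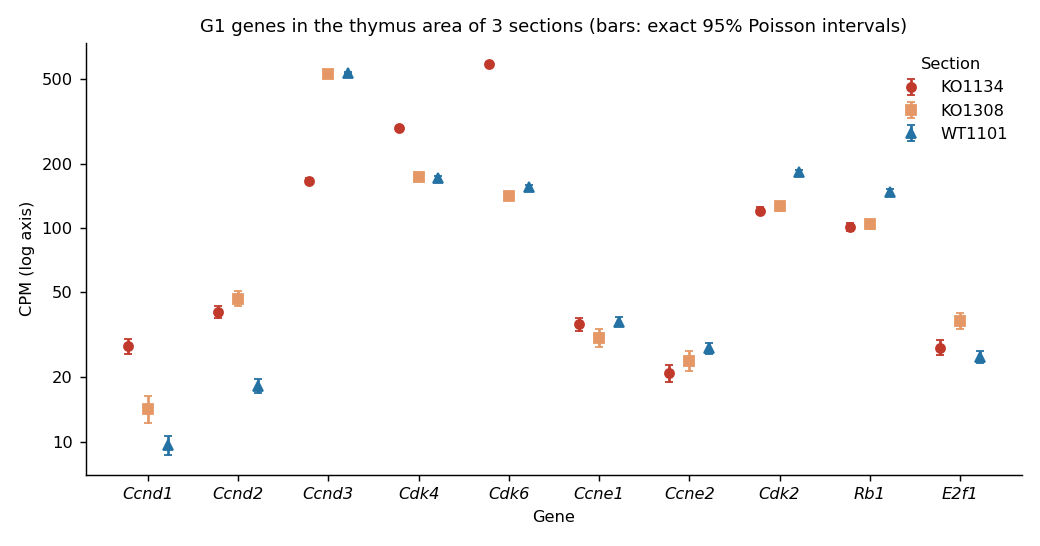
CPM of the 10 genes in the thymus area (vertical log axis) for each section (colour and symbol), with exact 95% Poisson intervals as bars. KO1134 stands apart for *Ccnd3* (165 CPM), *Cdk4* (294) and *Cdk6* (586), while both KO sections lie above WT for *Ccnd2* and below it for *Cdk2* and *Rb1*.

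*Cdk6* (chr5:3341485-3531008, plus strand) was the gene that differed most between the KO sections. It stood at 586 CPM in the thymus area of KO1134 [576 to 596], 141 in KO1308 [135 to 148] and 155 in WT [151 to 159]. KO1134 was far above the others, with a ratio of 3.78 to WT (rank 743 of 16745) and 4.14 to KO1308, and KO1308 was slightly below WT, at 0.913 [0.867 to 0.961]. In the cortex the levels were 751, 197 and 168 CPM. Split at the medians of their position into 4 parts, the cortex of KO1134 ranged from 676 to 790 CPM of *Cdk6*, that of KO1308 from 142 to 255 and that of WT from 158 to 178, so no part of another section came near KO1134. *Cdk4* (chr10:127063534-127067920, plus strand), the partner kinase with the same role, was at 294 CPM in KO1134 [287 to 301], 173 in KO1308 [166 to 180] and 171 in WT [167 to 175]. *Cdk4* in KO1308 and WT did not differ beyond counting error (ratio 1.01, 0.965 to 1.06), and KO1134 was at a ratio of 1.72. *Cdk6* supplied 66.6% of the UMIs of both kinases in KO1134, 45.0% in KO1308 and 47.6% in WT. Between KO1134 and KO1308, *Ccnd1* (ratio 1.97), *Cdk4* (1.70) and *Cdk6* were past 1.5-fold higher in KO1134, 3 of 10 against 12.0% of all genes, and *Ccnd3* was lower, 1 of 10 against 26.0%.

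The cortex was the main site of *Cdk6*. From cortex to medulla *Cdk6* went from 751 to 262 CPM in KO1134, from 197 to 64.6 in KO1308 and from 168 to 114 in WT, lower in the medulla in 3 of 3 sections. The log2 difference was -1.25 (SE 0.18, adjusted p = 0.000773 by edgeR). In the lymph-node-like bins *Cdk6* was at 57.4 CPM in KO1134 and 76.0 in KO1308, so the 2 KO sections were near each other there, and within KO1134 these bins held 0.0765 times the *Cdk6* of the cortex [0.0685 to 0.0851]. *Cdk4* was at 339, 180 and 179 CPM in the cortex and 221, 166 and 161 in the medulla. Its log2 difference of -0.33 (SE 0.13) did not pass (adjusted p = 0.0765 by edgeR), and it passed at 0.0484 without the WT section.

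Of the genes around *Cdk6*, chosen for a look after its values were seen, 17 within 1 Mb had at least 100 UMIs in the thymus area. Their ratio of KO1134 to WT had a median of 1.14, and 7 were at 1.5 or above, against 27.4% of all genes. As ratios of KO1134 and KO1308 to WT, *Gatad1* was at 2.63 and 1.13, *Ankib1* at 1.86 and 1.22 and *Cyp51* at 2.14 and 3.11. *Krit1* was at 1.10 and 0.988 and *Akap9* at 1.12 and 0.860. *Gm17590*, an antisense gene whose exons overlap those of *Cdk6* and 1 of the 7, had 9.49 CPM in KO1134 against 0.363 in KO1308 and 0.391 in WT. The sources used here do not state whether strand was used in counting, so reads of overlapping genes cannot be told apart. The same holds for *Bysl*, which overlaps *Ccnd3* on the other strand and was listed at 150 CPM in KO1134, 470 in KO1308 and 424 in WT beside 165, 525 and 532 for *Ccnd3*. *Gm43126*, which overlaps *Ccnd2*, was at 24.8, 34.8 and 9.46 CPM. Exon bases are also shared by *LTO1* with *Ccnd1*, *Tspan31* with *Cdk4*, *Ints8* with *Ccne2*, *Pmel* with *Cdk2*, and *Rcbtb2* and *Lpar6* with *Rb1*, whereas no such gene was found for *Ccne1* and *E2f1*.

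The E cyclins, which bind Cdk2 late in G1, were scarce and at or below the WT level in both KO sections. *Ccne1* (chr7:38097984-38107534, minus strand) stood at 35.5 CPM in the thymus area of KO1134 [33.1 to 38.0], 30.6 in KO1308 [27.7 to 33.7] and 36.5 in WT [34.6 to 38.4]. *Ccne2* (chr4:11191351-11204779, plus strand) stood at 20.9, 23.9 and 27.3 CPM. Neither was past 1.5-fold in either KO section, and *Ccne1* in KO1134 did not differ from WT beyond counting error (ratio 0.973, 0.891 to 1.06). The ratio of *Ccne1* was 0.839 in KO1308, and that of *Ccne2* was 0.767 in KO1134 and 0.878 in KO1308. *Ccne1* supplied 62.9%, 56.1% and 57.2% of E cyclin UMIs in KO1134, KO1308 and WT. Both E cyclins were lower in the medulla in 3 of 3 sections. *Ccne1* went from 41.5 to 21.5 CPM in KO1134, from 34.9 to 19.2 in KO1308 and from 39.5 to 26.7 in WT, a log2 difference of -0.81 (SE 0.14, adjusted p = 0.00218 by edgeR). For *Ccne2* the log2 difference was -0.64 (SE 0.17, adjusted p = 0.0173 by edgeR), and without KO1308 the adjusted p was 0.103.

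*Cdk2* (chr10:128697939-128705031, minus strand) was at 120 CPM in the thymus area of KO1134 [116 to 125], 126 in KO1308 [120 to 132] and 183 in WT [178 to 187]. Both KO sections were below WT and their intervals overlapped each other, with ratios to WT of 0.659 [0.630 to 0.689] and 0.692 [0.656 to 0.729], the second just outside the 1.5-fold limit. In the medulla both were past the limit, at 0.549 and 0.596, and in the cortex neither was, at 0.745 and 0.815. As stated above, KO and WT medulla are not like areas, and the part of this was not tested. From cortex to medulla *Cdk2* went from 144 to 79.4 CPM in KO1134, from 157 to 86.3 in KO1308 and from 193 to 145 in WT, a log2 difference of -0.74 (SE 0.12, adjusted p = 0.00179 by edgeR). Over 16 profiles of an area in a section, the gene most like *Cdk2* of 13007 was *Pcna*, the sliding clamp of DNA replication and an E2F target, with a Pearson r of 0.988 on the log2(CPM + 1) scale. These profiles share libraries, and no p is given.

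The promoter of *Cdk2* is shown because, of the promoters searched for E2F core words, it alone held a match. RefSeq promoters of 300 bases in GRCm38.p6 were at hand for 6 of the 10 genes, and they were searched on both strands for 4 E2F core words. The first word was TTCCCGC, the form most often given for E2F. The second word searched for was TTGGCGC, and the third of the words was TTCGCGC. The last word of the search was TTGCCGC. Matches of different words may overlap. Of these 6 genes, 1 held any of them, *Cdk2*, against 10.9% of 27025 genes (9.57% of 32851 promoters). The stretch upstream of its start at chr10:128705052-128705211, minus strand, is given 5′ to 3′ with the matches in capitals, both on the strand opposite to the words as spelled.
*Cdk2* promoter: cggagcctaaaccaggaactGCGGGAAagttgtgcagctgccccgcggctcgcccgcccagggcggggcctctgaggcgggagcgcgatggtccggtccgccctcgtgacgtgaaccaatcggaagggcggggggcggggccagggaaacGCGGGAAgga
The 300-base promoter held 3 matches, and the 2 in this stretch begin 140 and 10 bases before the start. A match describes the letters and does not show a bound site, and the lack of a match in the promoters of *Ccnd3*, *Cdk4*, *Cdk6*, *Ccne1* and *E2f1* says only that these words are not in those windows.

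*Rb1* (chr14:73183673-73325822, minus strand), the brake of the pathway, differed little between cortex and medulla. It stood at 106 CPM in the cortex and 90.2 in the medulla of KO1134, 98.1 and 102 in KO1308, and 147 and 143 in WT. The medulla was lower than the cortex beyond counting error in KO1134 (ratio 0.847, 0.766 to 0.936) and within it in KO1308 and WT, and the log2 difference of -0.11 (SE 0.11) did not pass (adjusted p = 0.525 by edgeR). In the thymus-gene-poor bins *Rb1* was lower, at 0.593 times the cortex level in KO1134 [0.480 to 0.727], 0.839 in KO1308 [0.695 to 1.01] and 0.563 in WT [0.483 to 0.654], values that were not tested. Over the thymus area *Rb1* was at 101 CPM in KO1134 [96.7 to 105], 104 in KO1308 [98.5 to 109] and 147 in WT [144 to 151]. The KO sections had overlapping intervals and lay below WT, at ratios of 0.684 and 0.704, both just outside the limit. Scaled by TMM or to the median gene, *Rb1* and *Cdk2* were past 1.5-fold lower in both KO sections, 2 of 10 genes against 9.04% of all genes with TMM (17.4% higher) and 9.42% relative to the median gene (17.1% higher).

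*E2f1* (chr2:154559407-154569892, minus strand), an E2F that drives S phase genes, stood at 27.5 CPM in the thymus area of KO1134 [25.4 to 29.8], 36.8 in KO1308 [33.6 to 40.1] and 24.8 in WT [23.3 to 26.4]. Both KO sections were above WT without passing the limit, at ratios of 1.11 and 1.48. The cortex showed the larger difference, with 35.5, 46.2 and 26.4 CPM and ratios of 1.34 [1.19 to 1.52] and 1.75 [1.52 to 2.01]. In the medulla *E2f1* was at 14.0, 24.2 and 20.6 CPM, and KO1134 was then below WT. The medulla was lower than the cortex in 3 of 3 sections, by a log2 difference of -0.89 (SE 0.18, adjusted p = 0.00500 by edgeR). Its nearest gene over the 16 profiles was *Rrm1*, a subunit of ribonucleotide reductase and an E2F target, at r = 0.974.

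**Figure D4:**
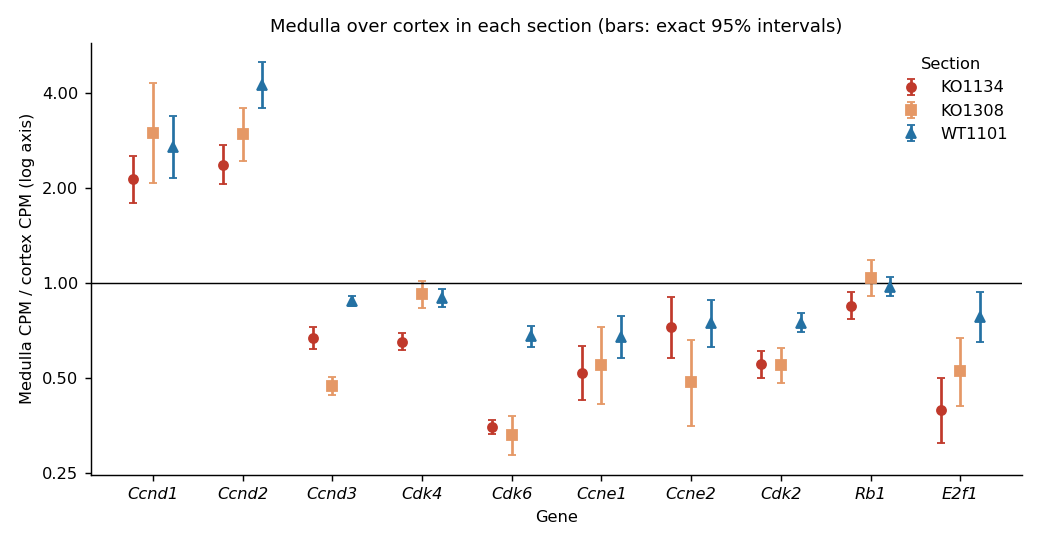
Ratio of medulla to cortex CPM for each gene (vertical log axis) in each section (colour and symbol), with exact 95% intervals as bars and a line at 1. *Ccnd1* and *Ccnd2* lie above the line in all 3 sections, *Cdk6*, *Ccne1*, *Cdk2* and *E2f1* below it, and *Rb1* lies nearest to it, with ratios of 0.847 in KO1134, 1.04 in KO1308 and 0.972 in WT.

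In all, 8 of the 10 genes passed in the edgeR fit of medulla against cortex, 2 higher and 6 lower, among 16725 genes of which 16.6% were called higher and 9.70% lower. The share of the 10 genes called lower was above that of all genes. The median log2 difference was -0.64 for the 10 genes and 0.00 for all genes tested. With the thymus area limited to bins around which the thymus genes reached 100% of their share, most differences were nearer 0, and *Ccnd2* was at 0.77, *Ccnd1* at 0.52, *Cdk6* at -0.62, *Cdk2* at -0.38, *Ccnd3* at -0.31 and *Ccne1* at -0.24 on the log2 scale. *Ccnd1* (adjusted p = 0.121 by edgeR) and *Ccne1* (adjusted p = 0.238) then did not pass. Genes of mitosis, a list of 10 such as *Mki67* that holds none of the 10 genes here, went along the same path from 1282 to 587 CPM in KO1134, from 1936 to 779.7 in KO1308 and from 2024 to 1210.3 in WT. Their part in the lower levels of the E cyclins, *Cdk2* and *E2f1* was not tested in this comparison.

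The cortex was therefore also ranked by the share of these mitosis genes in the 7 × 7 bins around each bin and divided into 4 equal sets of bins. From the least to the most mitotic set (sets 1 to 4), the mitosis genes went from 953 to 1541 CPM in KO1134, from 1292 to 2489 in KO1308 and from 1337 to 2575 in WT. Set 4 held more UMIs than set 1, at 3638353 against 2642513 in KO1134, 1806441 against 1371045 in KO1308 and 7244555 against 4645398 in WT. The sets thus also differ in depth, and the part of depth was not tested. *Ccne1* went from 39.0 to 45.9 CPM in KO1134, from 28.4 to 49.8 in KO1308 and from 29.1 to 47.3 in WT, higher in 3 of 3 sections. *Ccne2*, *Cdk2*, *Cdk4* and *E2f1* were also higher in set 4 in 3 of 3 sections, and *Ccnd2* was lower in 3 of 3, going from 33.7 to 21.7 CPM in KO1134, from 29.9 to 23.8 in KO1308 and from 13.3 to 9.94 in WT. None of the 10 passed the edgeR test between sets 1 and 4, where the lowest adjusted p was 0.261 for *Ccne1* (log2 difference 0.59, SE 0.17). None of 14275 genes passed it (percent called 0 in each direction), with 1378 at an unadjusted p under 0.05, and DESeq2 called 24 genes higher and 15 lower. Of the 10 genes, 5 were at an unadjusted p under 0.05.

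*Ccnd3* did not follow the mitosis genes in the same way in each section. It went from 169 to 196 CPM in KO1134, from 454 to 829 in KO1308 and from 579 to 511 in WT, where it was lower in the most mitotic set. *Cdk6* went from 646 to 791 CPM in KO1134 and from 143 to 195 in WT, but from 230 to 166 in KO1308. The CD4+CD8+ thymocyte genes ran with *Ccnd3*, from 750 to 959 CPM in KO1134, from 1713 to 3227 in KO1308 and from 4117 to 3483 in WT, and their part was not tested. An end of the KO1308 cortex, described below, differed from the rest in *Ccnd3*, *Cdk6* and the mitosis genes, and its part was not tested either.

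**Figure D5:**
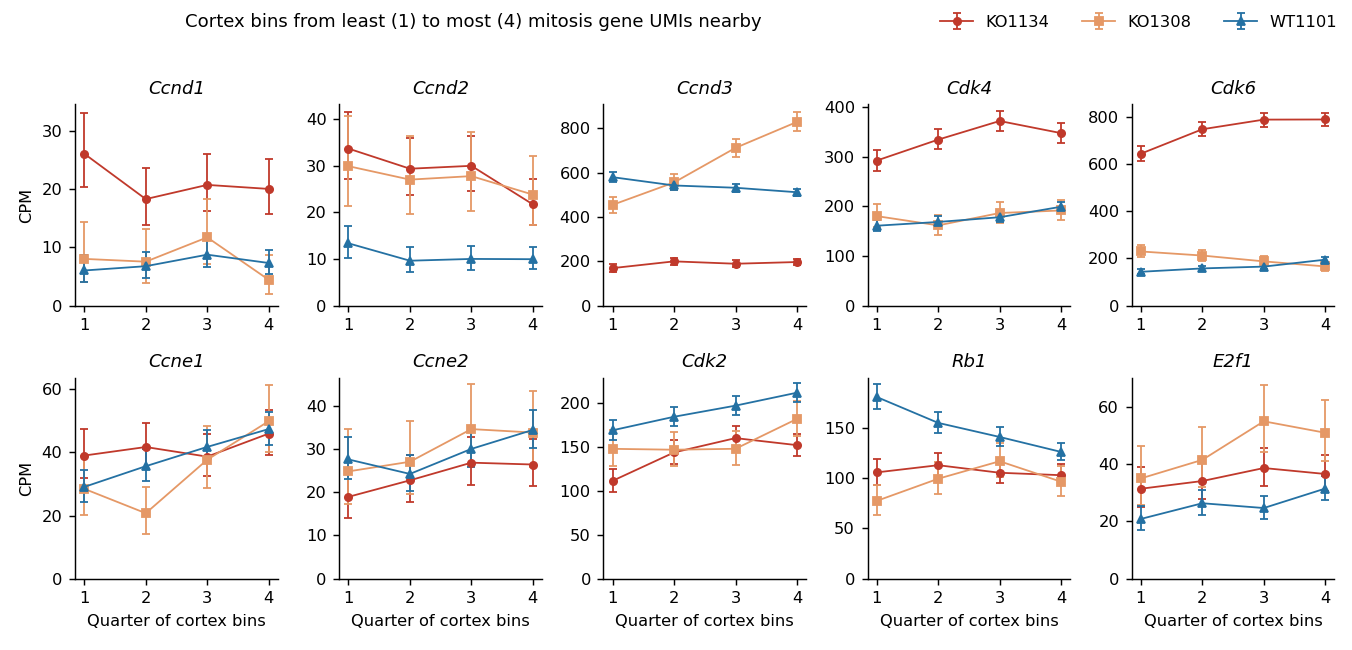
CPM of each gene (vertical axis, from 0) in 4 equal sets of cortex bins ordered from the fewest (1) to the most (4) mitosis gene UMIs around them, by section (colour and symbol), with exact 95% Poisson intervals as bars. *Ccne1* is higher in set 4 than in set 1 in every section, and *Ccnd3* goes from 454 to 829 CPM in KO1308 and from 579 to 511 in WT.

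Within KO1308 the maps showed an area of the cortex, at the left end of the lower piece, that was dim for *Ccnd3* and bright for *Cdk6*. It was marked off after these values were seen, as the 1170 cortex bins within 1 mm of the left edge and under 4 mm on the vertical axis, and set beside the other 4041 cortex bins without a test. *Ccnd3* was at 312 CPM at this end and 773 elsewhere, a ratio of 0.404 [0.368 to 0.443]. *Cdk6* was at 326 CPM against 150, a ratio of 2.17 [1.94 to 2.43]. *Ccnd2* (0.537), *Ccne1* (0.585) and *Rb1* (0.626) were also past 1.5-fold lower. *Cdk4* was at 149 CPM against 192, *Cdk2* at 135 against 166 and *E2f1* at 34.1 against 50.5, none past the limit, while *Ccne2* was alike at 30.0 and 30.5. *Ccnd1* had a ratio of 1.42, within counting error (0.743 to 2.63). Of 9736 genes with at least 100 UMIs in these bins, 7.71% were past 1.5-fold higher at this end and 15.8% lower. Bins at this end held a mean of 1453 UMIs and those elsewhere 1161. Divided at its medians into 4 parts, which is not how this end was chosen, the cortex of KO1308 ranged from 510 to 825 CPM of *Ccnd3*. By the same division the range was 182 to 194 CPM in KO1134 and 528 to 548 in WT.

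Among other genes of the pathway, the share of all genes past 1.5-fold in both KO sections was the 19.9% higher and 6.12% lower given above. Of 7 inhibitor genes, *Cdkn2a* and *Cdkn2b* were past 1.5-fold higher in the thymus area of both KO sections and *Cdkn2d* was lower, at ratios of 0.287 and 0.559. *Cdkn2b*, which encodes p15, was at ratios of 7.41 and 7.83, and *Cdkn2a*, which encodes p16 and p19Arf, at 146 and 100. The size of these ratios is uncertain, since only 20 WT thymus bins held a UMI of *Cdkn2a*. *Cdkn2b* was scarce too, at a mean of 2.10 CPM in the cortex of the 3 sections. *Cdkn2c*, the gene of p18, was not past the limit in both, at 0.706 and 0.665, and *Cdkn1a* was at 0.609 and 0.795. Of 2 other pocket protein genes, *Rbl2* was lower, at 0.603 and 0.369, and *Rbl1* was at 0.705 and 0.743. None of 9 other E2F and DP genes, 16 E2F target genes and 9 genes of kinase activation and cyclin turnover was past the limit in both KO sections. The median ratio of the E2F targets was 0.69 in KO1134 and 0.91 in KO1308. Between medulla and cortex, 9.70% of all genes tested were called lower and 16.6% higher. All 16 E2F targets, from *Mcm2* to *Tyms*, were lower in the medulla than in the cortex by edgeR, with a median log2 difference of -0.83. Of the other E2F and DP genes 5 of 9 were lower and none higher, and of the inhibitors *Cdkn2c* (-1.01) and *Cdkn2d* (-0.44) were lower while *Cdkn1a* (1.44) and *Cdkn2b* (1.68) were higher. *Rbl1* (-0.68) was lower in the medulla, as were *Cdc25a*, *Cks1b* and *Skp2* of the activation and turnover list.

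Bins with a UMI of *Cdkn2a* numbered 1489 of 8647 in the thymus area of KO1134, 677 of 13253 in KO1308 and 20 of 24694 in WT. In KO1134 these bins held 686 CPM of *Cdk6* against 560 in the others (ratio 1.23, 1.18 to 1.28) and in KO1308 173 against 139 (ratio 1.24, 1.04 to 1.47). *Ccnd3* went in opposite directions, with a ratio of 1.15 in KO1134 and 0.781 in KO1308 [0.698 to 0.871]. Positive bins were deeper, at means of 3084 and 2493 UMIs in KO1134 and 1206 and 1032 in KO1308, so the split also differs in depth. T bins, in which *Cd3d*, *Cd3e* or *Cd3g* passed a natural log level of 2, had ratios to the other thymus bins between 0.79 and 1.20 for all 10 genes in all 3 sections. That level is relative to the UMIs of a bin, so fewer UMIs of these genes suffice in a shallow bin, and the split also depends on depth. T bins made up 26.7% of the thymus area in KO1134, 43.0% in KO1308 and 64.3% in WT.

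Across the 16 profiles, the genes most like the others of the 10 were as follows, as a description over areas that share libraries. *Ccnd1* was nearest to the antigen presentation gene *H2-Eb1* (r = 0.984) and then to *Dnase1l3* and *Ifi30*. *Ccnd2* was nearest to *Hormad1* (0.983), *Samhd1* and *Bgn*. *Ccnd3* was nearest to *Bysl* (0.984), its overlapping gene, and then to *Mier1* and *Znrf1*. *Cdk6* was nearest to *Snu13* (0.971), *Psmc6* and *Tmem121*, and *Cdk4* to *Psmg2* (0.970) and *Svil*. *Ccne1* was nearest to *Pbdc1* (0.975), *Hcfc1* and *Stip1*, *Ccne2* to *4930579G24Rik* (0.969), and *Rb1* to *Cyp26b1* (0.970).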

How the data were processed

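Spatial RNA-seq of thymus sections from 2 KO mice and 1 WT mouse was used. Per the labels, BSTMatrix and STAR were run against GRCm38, and the authors deposited UMI counts per gene and spot, as whole numbers without normalisation. The strand setting and annotation release were not given in the sources used here, and 99.8% of gene IDs were found in GENCODE M21. Spots were summed in bins of 27 µm, and bins outside connected groups of 200 were left out. Areas were drawn from marker genes, with 7 × 7 bins around each bin. UMIs summed per section and area were tested with edgeR 4.0.16 (TMM, filterByExpr, quasi-likelihood, section as a block, Benjamini-Hochberg over all genes), and DESeq2 1.42.0 was an alternative. KO was set beside WT without a test, and a gene was called when past 1.5-fold the same way in both KO sections. The edgeR step and the ratio interval were tested on simulated data. Scripts ran in R 4.3.3 and Python 3.11.15 (pandas 2.3.3, scipy 1.17.1, numpy 2.4.6, matplotlib 3.10.9). All 10 genes are named, with genes of fixed pathway lists past a call and up to 3 genes most like each. Some genes are not reported here. The genes and lists were chosen with earlier results of these data known. The end of the KO1308 cortex and the genes around *Cdk6* were chosen after values were seen.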

Additional observations from a re-analysis of the deposited data

Results flagged for a closer look

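Within the cortex, the ratio of the most mitotic set of bins to the least mitotic set went in opposite directions in the KO sections and the WT section for 2 genes. *Ccnd1* had a ratio of 0.768 in KO1134, 0.552 in KO1308 and 1.21 in WT. These ratios rest on 69 to 73, 8 to 11 and 28 to 53 UMIs per set, and the intervals of the 2 sets overlapped in each section, so the directions for *Ccnd1* are within counting error. *Ccnd3* had a ratio of 1.16 in KO1134, 1.82 in KO1308 and 0.883 in WT. The end of the KO1308 cortex described above held 312 CPM of *Ccnd3* against 773 elsewhere. Its mitosis genes were at 1593 CPM against 2061, and the part of this end in the ratio of KO1308 was not tested. The difference between the genotypes was not tested, because WT has 1 section.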

How the results depend on the processing

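KO and WT sections could not be paired, because they come from separate mice. Of the 10 genes, 1 was past 1.5-fold in both KO sections over the thymus area (*Ccnd2*). The count was 2 (with *Ccnd1*) with at least 500 genes per bin or without mitochondrial, ribosomal and immunoglobulin UMIs, 3 over all tissue (with *Ccnd1* and *Cdk2*), 3 with TMM (with *Cdk2* and *Rb1*) and, in alternatives chosen after seeing the data, 3 in the medulla (with *Ccnd3* and *Cdk2*) and 3 relative to the median gene (with *Cdk2* and *Rb1*). With a single KO section it ranged from 1 to 6, and the 6 without KO1308 were *Ccnd1*, *Ccnd2*, *Cdk4* and *Cdk6* (higher, with 27.4% of all genes) and *Ccnd3* and *Cdk2* (lower, with 18.9%). The mean share of *Ccnd3* ranged from 87.1% to 95.9% in the cortex and from 63.9% to 81.4% in the medulla when a section was left out. Between medulla and cortex 8 of the 10 genes passed, 6 to 9 when a section was left out, and 0 with no section block, where none of the 16725 genes did (2080 at an unadjusted p under 0.05, and DESeq2 with the block called 2044 higher and 1530 lower). With the thymus area at 100% of the share of thymus genes, chosen after seeing the data, *Ccnd1* (0.52, adjusted p = 0.121 by edgeR) and *Ccne1* (-0.24, adjusted p = 0.238) no longer passed, *Ccnd2* went from 1.60 to 0.77 and *Cdk6* from -1.25 to -0.62, *Rb1* turned to 0.046, and 1133 genes were higher and 695 lower in place of 2769 and 1622. The counts were 1666 and 1072 in T bins, 1001 lower without KO1308 and 3052 lower with no filter on low counts. *Cdk4* passed with no filter, with 9 × 9 bins, with no gap between cortex and medulla, at 100% and without WT. Between mitotic sets, *Ccne1* alone of the 10 passed, with no filter on low counts (1 gene, adjusted p = 0.0374 by edgeR), and the range was 0 to 0 when a section was left out. The log2 difference with a section left out ranged from -0.074 (without WT) to 0.418 for *Cdk6* and from -0.24 to 0.11 (without WT) for *Rb1*, and *Ccnd1* was 0.011 with 50 µm bins, 0.014 with at least 200 genes and 0.11 with the cortex divided in 2 sets. Genes called between these sets, 0 as reported, numbered 223 higher and 153 lower with no filter, 201 and 140 without KO1308, 150 and 139 with 50 µm bins, 115 and 132 with no minimum of genes, 86 and 80 with at least 200 genes and 56 and 40 with 5 × 5 bins. Where a call or sign changed, the cause was not tested. Depth limits *Ccnd1* most, which rests on 195 UMIs in the thymus area of KO1308.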

Other observations

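The cortex end of KO1308 that was low in *Ccnd3* and high in *Cdk6* also differed from the rest of that cortex in T cell receptor genes. *Trbc1*, 1 of the pair of T cell receptor beta constant genes, was at 489 CPM against 1981 elsewhere, a ratio of 0.247, and *Trbc2* was at 2304 against 3132, a ratio of 0.736. *Cdkn2a* was at 112 CPM against 30.7, a ratio of 3.64 [2.92 to 4.55]. The CD4+CD8+ thymocyte genes summed to 1203 CPM against 3039 and the mitosis genes to 1593 against 2061, while cortical epithelial genes had a ratio of 1.27. This end was chosen from the maps of *Ccnd3* and *Cdk6*, so the values are a description.

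In KO1134, 7632 of 8647 thymus bins had more *Trbc1* than *Trbc2* UMIs in the bins around them, against 83 bins in KO1308 and 17 in WT. Those bins of KO1134 held 616 CPM of *Cdk6* against 378 in its other thymus bins, a ratio of 1.63. *E2f1* (1.85) and *Ccne1* (1.72) were higher there as well, whereas *Ccnd2* was at a ratio of 0.621 and *Ccnd1* at 0.697. Cortex and medulla were not separated in this split. Between them the same genes went the same way in KO1134, with *Cdk6*, *E2f1* and *Ccne1* higher in the cortex and *Ccnd1* and *Ccnd2* lower. The part of cortex and medulla in these ratios was not tested.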
